A study of Danio rerio with 12 samples.

Results

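The 6 libraries described here came from unexposed zebrafish larvae of the AB strain, 3 sampled at 7 days post fertilization (dpf) and 3 at 10 dpf, out of 12 libraries in the series. They were chosen by their labels alone, as every control library of both ages. The other 6 libraries came from larvae of the same ages kept with tritiated water (HTO), which irradiates tissue from within, at a dose rate of 0.4 mGy/h; they enter the fit as groups of their own and the last comparison as a contrast. Eggs of all groups were collected at 3 h post fertilization and raised in square petri dishes at 28 °C, in embryo medium with 60 mg/L sea salt. Control dishes stood in an incubator outside a glove box in the same room, and exposed dishes in an incubator inside it, so that the glove box and HTO cannot be told apart. RNA came from entire larvae, was extracted with TRIzol and chloroform and was not treated with DNase I. Labels and design text are the sources for these facts. The hour of sampling, the number of larvae pooled per library and whether and how larvae were fed are unknown from those sources. The design text calls the 3 libraries of a group biological replicates without saying whether they came from separate clutches. The p-values therefore measure the spread between these libraries.

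Between 7 and 10 dpf a zebrafish larva passes from the last of its yolk to feeding on its own. By this age it swims, hunts by sight and has a working gut, liver and pancreas, while its skeleton, retina and brain are still growing from dividing progenitors. Messenger RNA from the whole body mixes all of these organs, so that a gene made in 1 organ reports on that organ and a gene made everywhere on the body as a whole. In such samples fewer cells of a type and less RNA per cell cannot be told apart. Levels are given as CPM, the reads on 1 gene relative to the library's reads on tested genes, with each library scaled by a TMM factor. The factor, 0.97 to 1.035 in control libraries, is meant to offset that a rise of abundant genes lowers the share left for others. Levels remain relative and are not amounts per larva. Every cell type looked for had at least 1 marker gene above 1 CPM in all 6 control libraries. Single markers were lower: the osteoblast gene bglap and the neutrophil gene lyz were at or close to 0 CPM, and the ionocyte regulator foxi3b and the T cell kinase lck stayed under 1 CPM. So did 3 of 7 genes with the globin symbol HBE1, 2 of 3 with the macrophage symbol MPEG1 and 4 of 8 with the macrophage symbol MFAP4, some of them at 0 CPM in every library.

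The control libraries held 31072567 to 67338921 reads on genes each, and replicates of 1 age correlated with r of 0.9841 to 0.9928 over log2 CPM of the tested genes. Of 23075 genes tested, 3300 (14.3%) rose and 3470 (15.0%) fell from 7 to 10 dpf at an adjusted p of at most 0.05 (edgeR quasi-likelihood test, Benjamini-Hochberg adjustment). Most of these changes were small. The median log2 fold change was 0.54 among genes that rose and -0.59 among genes that fell, 712 rose and 682 fell more than 2-fold, and 193 rose and 114 fell more than 4-fold. The median over all tested genes was -0.01. The 3 libraries of each age did not overlap for 22.5% of genes, higher at 10 dpf, and for 23.6%, lower at 10 dpf. In a principal component analysis of the 6 libraries, the first component held 64.3% of the variance and separated the ages, with scores of -52.75 to -31.73 at 7 dpf and 40.24 to 47.68 at 10 dpf. The second held 14.2% and spread the 7 dpf libraries, from 31.56 for replicate 1 to -32.59 for replicate 3. The shares of 14.3% and 15.0% are the background beside which each gene list below is given. Lists and their members were chosen with earlier results of these data known. A share above the background therefore describes a list and is no test of it.

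**Figure D1:**
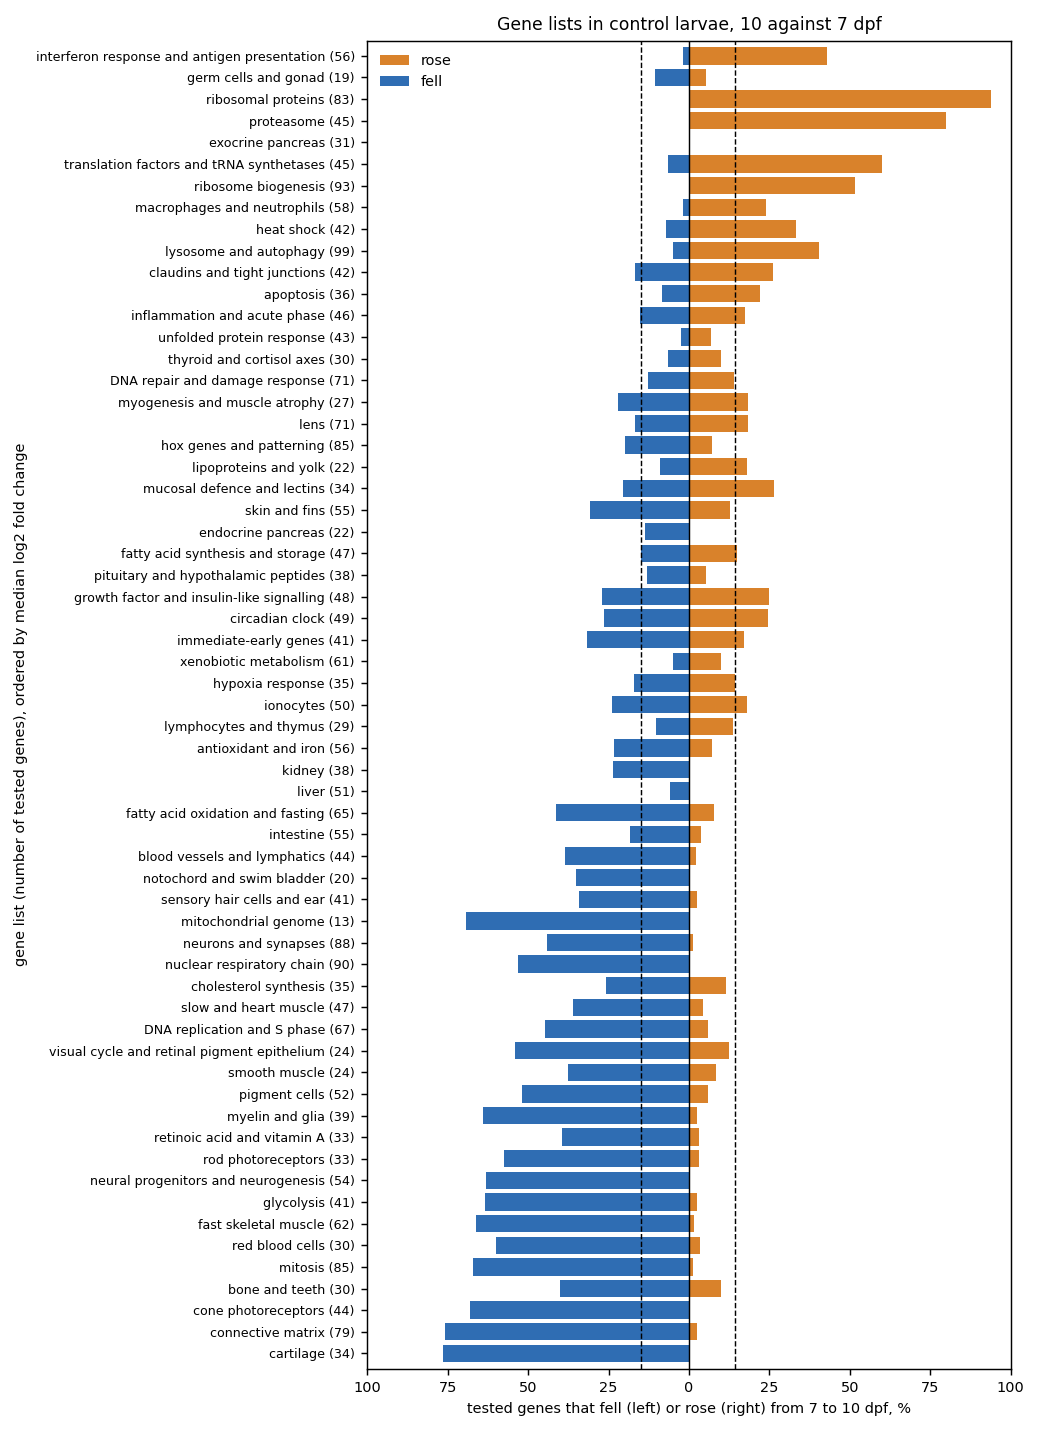
Share of the tested genes of each of 61 gene lists that rose (right, orange) or fell (left, blue) from 7 to 10 dpf in control larvae at an adjusted p of at most 0.05, in percent; dashed lines mark the shares over all tested genes, 14.3% and 15.0%. Ribosomal proteins and the proteasome have the longest bars to the right, and connective matrix, cartilage and cone photoreceptors are among the longest to the left. Lists were chosen with earlier results of these data known.

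Genes of the eye's light-sensing cells fell. Photoreceptors carry opsins, which absorb light, and a cascade of a G protein (transducin), a phosphodiesterase, arrestins and kinases that turns the opsin signal into a change of membrane current and ends it. Cones serve colour vision in daylight, and rods serve vision in dim light. The cone list holds more than 1 green and more than 1 red opsin gene. Of 44 cone genes tested, 30 fell and 0 rose, with a median log2 fold change of -0.79. Summed over these genes, cone transcripts made up 4480 to 5290 CPM at 7 dpf and 1960 to 2030 CPM at 10 dpf. The ultraviolet cone opsin OPN1SW stood at 932, 1036 and 997 CPM at 7 dpf and 209, 229.7 and 188 CPM at 10 dpf. Its level at 10 dpf was 4.74-fold lower (log2 fold change of -2.24 ± 0.12, adjusted p = 8.57e-08). opn1lw2, a red cone opsin, was measured at 107, 131 and 134 CPM at 7 dpf and 6.79, 11.7 and 6.505 CPM at 10 dpf, with a log2 fold change of -3.89 ± 0.21, adjusted p = 3.50e-07. opn1mw1, a green cone opsin, gave 334, 392 and 393 CPM at 7 dpf and 68.0, 87.3 and 67.0 CPM at 10 dpf (log2 fold change of -2.33 ± 0.14, adjusted p = 1.78e-07). The blue cone opsin opn1sw2 gave 73.4, 75.9 and 96.4 CPM at 7 dpf and 19.1, 21.2 and 21.6 CPM at 10 dpf (log2 fold change of -1.99 ± 0.13, adjusted p = 5.32e-07). For each of these opsins every 10 dpf library lay below every 7 dpf library. Downstream of the opsins, the cone transducin subunit GNAT2 read 465, 529 and 534 CPM at 7 dpf and 167, 187 and 175 CPM at 10 dpf. The cone phosphodiesterase PDE6C read 451, 507 and 537 CPM at 7 dpf and 216, 226 and 233 CPM at 10 dpf. Both fell without overlap, as did the cone opsin kinase GRK7 (ENSDARG00000020602), at 196, 202 and 250 CPM at 7 dpf and 76.3, 71.8 and 79.3 CPM at 10 dpf.

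Rod genes moved the same way, with 19 of 33 lower, 1 higher and a median of -0.51. The rod arrestin saga gave 61.1, 65.4 and 71.8 CPM at 7 dpf and 24.2, 29.6 and 28.4 CPM at 10 dpf. The rod transducin subunit GNAT1 gave 45.9, 53.7 and 53.0 CPM at 7 dpf and 20.2, 27.7 and 27.5 CPM at 10 dpf. PROM1 (ENSDARG00000034007), a membrane protein of photoreceptor discs, was the rod list's 1 gene that rose, at 18.9, 20.3 and 21.2 CPM at 7 dpf and 28.5, 25.5 and 29.1 CPM at 10 dpf. The symbol is shared by more than 1 gene, and reads of near-identical copies cannot be assigned with certainty here. The visual cycle rebuilds the light-absorbing chromophore. In its list, which includes genes of the retinal pigment epithelium, 13 of 24 genes fell and 3 rose. The list was not split by cell type, so that these falls cannot be placed in the pigment epithelium alone. The visual cycle isomerase RPE65 (ENSDARG00000094752) read 4.89, 4.43 and 4.71 CPM at 7 dpf and 2.17, 2.33 and 2.39 CPM at 10 dpf (log2 fold change of -1.03 ± 0.12, adjusted p = 4.82e-05). With 1 library left out, 1 gene of the visual cycle and retinal pigment epithelium list rose (without Control_7dpf replicate 3).

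The lens did not follow the retina in 1 direction. Of 71 lens genes, 13 rose and 12 fell, close to the background shares, and the median was -0.04. Its parts differed. Gamma crystallins rose in 9 of 36 and fell in 2. Beta crystallins rose in 1 of 13 and fell in 3, and membrane genes rose in 1 of 11 and fell in 4. The remaining genes rose in 2 of 8 and fell in 3, and 0 of 3 alpha crystallins were called. The gamma-M crystallin crygm2d1, a structural protein of lens fibres, read 494, 497 and 555 CPM at 7 dpf and 641, 889 and 636 CPM at 10 dpf (log2 fold change of 0.49 ± 0.14, adjusted p = 0.0181). Its relative crygm2c read 2.62, 3.82 and 3.94 CPM at 7 dpf and 7.01, 8.34 and 6.90 CPM at 10 dpf (log2 fold change of 1.12 ± 0.18, adjusted p = 4.17e-04). In contrast the fibre membrane channel MIP (ENSDARG00000013963) stood at 104, 98.0 and 90.2 CPM at 7 dpf and 65.4, 69.6 and 56.5 CPM at 10 dpf (log2 fold change of -0.61 ± 0.12, adjusted p = 0.00197). Gamma-M crystallins are encoded by many near-identical genes, so that single members are uncertain. The call was lost, with 1 library left out, for crygm2d1 (without Control_7dpf replicates 1 or 2 or Control_10dpf replicate 2, adjusted p = 0.0610 to 0.0949). When a library was left out, 7 to 8 genes of the lens list rose (without Control_7dpf replicates 1 or 2 or Control_10dpf replicates 1 or 2).

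**Figure D2:**
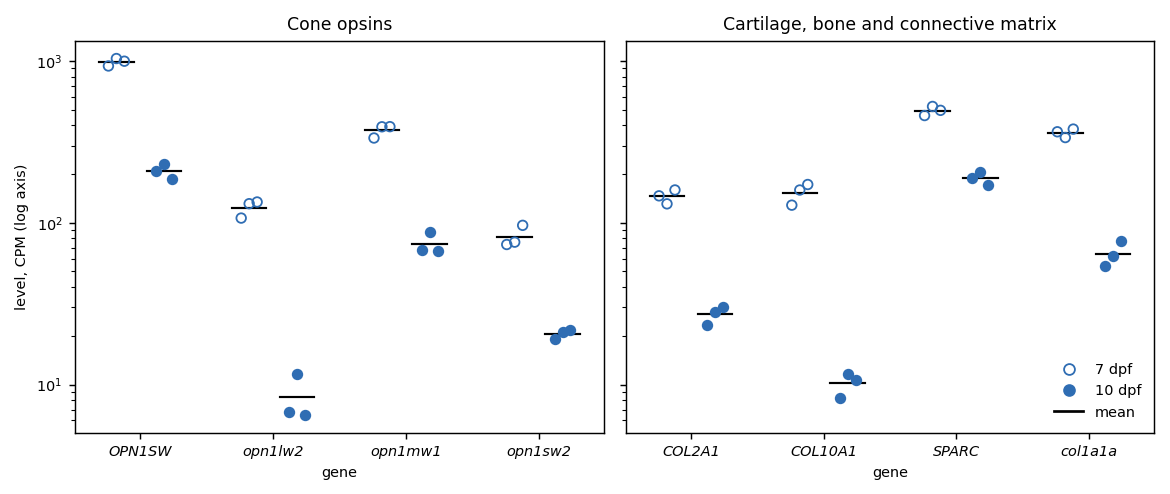
Level in each control library, in CPM on a log axis, of 4 cone opsins (left) and 4 genes of cartilage, bone and connective matrix (right), with open circles for the 3 libraries at 7 dpf, filled circles for the 3 at 10 dpf and a bar at each mean. In all 8 genes the filled circles lie below the open ones.

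Cartilage and collagen transcripts fell further, by their median, than those of the other tissue lists. Cartilage is built from type II and type XI collagen, proteoglycans and the linkers that hold them, under the control of Sox9; bone cells lay down type I and type X collagen and mineral-binding proteins, and fibroblasts the collagens of skin, tendon and fascia. Of 34 cartilage genes, 26 fell and 0 rose, with a median log2 fold change of -1.50, the most negative of the 61 lists. Their summed level was 1780 to 1980 CPM at 7 dpf and 548 to 615 CPM at 10 dpf. Type II collagen COL2A1 (ENSDARG00000069093) read 147, 131 and 159.5 CPM at 7 dpf and 23.2, 27.9 and 30.2 CPM at 10 dpf (log2 fold change of -2.43 ± 0.18, adjusted p = 2.81e-06). That is a 5.38-fold fall, and the libraries of the ages lay far apart. Another gene with the COL2A1 symbol was lower by less, at 148, 139 and 177 CPM at 7 dpf and 52.9, 55.9 and 59.5 CPM at 10 dpf. Type XI collagen COL11A1 read 136, 124 and 148 CPM at 7 dpf and 26.5, 28.7 and 30.0 CPM at 10 dpf. The cartilage matrilin MATN4 read 265, 301 and 306 CPM at 7 dpf and 89.1, 98.8 and 94.4 CPM at 10 dpf. The link protein hapln1a read 46.9, 54.2 and 49.3 CPM at 7 dpf and 8.83, 11.5 and 10.6 CPM at 10 dpf. All fell without overlap. The regulator SOX9 (ENSDARG00000003293) stood at 22.4, 25.7 and 24.8 CPM at 7 dpf and 13.4, 14.9 and 16.8 CPM at 10 dpf (log2 fold change of -0.69 ± 0.12, adjusted p = 0.00102).

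In bone and teeth, 12 of 30 genes fell and 3 rose (median -0.78, and -0.33 without Control_7dpf replicate 1). COL10A1 (ENSDARG00000054753), type X collagen of hypertrophic cartilage and fish bone, read 128, 159 and 172 CPM at 7 dpf and 8.28, 11.6 and 10.7 CPM at 10 dpf (log2 fold change of -3.91 ± 0.26, adjusted p = 3.40e-06). SPARC, a collagen-binding protein of mineralizing tissue, read 460.1, 524 and 496 CPM at 7 dpf and 189.7, 206 and 171 CPM at 10 dpf (log2 fold change of -1.38 ± 0.10, adjusted p = 9.74e-07). The regulator of osteoblasts SP7 read 4.37, 3.82 and 5.26 CPM at 7 dpf and 1.88, 1.84 and 2.72 CPM at 10 dpf, with a log2 fold change of -1.08 ± 0.18, adjusted p = 6.21e-04. Every 10 dpf value of these genes was under every 7 dpf value. The 3 genes that rose were an enzyme of mineralization and a pair of osteoclast genes. Alkaline phosphatase ALPL, which frees phosphate for mineral, read 27.3, 27.5 and 28.2 CPM at 7 dpf and 37.0, 34.4 and 37.9 CPM at 10 dpf. CTSK, cathepsin K, the protease with which osteoclasts digest collagen, read 43.4, 41.6 and 35.8 CPM at 7 dpf and 70.7, 71.7 and 62.2 CPM at 10 dpf (log2 fold change of 0.76 ± 0.09, adjusted p = 7.22e-05). The osteoclast phosphatase acp5b read 3.88, 4.82 and 3.83 CPM at 7 dpf and 6.502, 5.97 and 6.99 CPM at 10 dpf (log2 fold change of 0.64 ± 0.15, adjusted p = 0.00566).

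The connective matrix list includes type I collagen, which bone cells also make, so that its change cannot be placed outside the skeleton. Its genes fell as a block, with 60 of 79 lower, 2 higher and a median of -0.89. Summed, they took 6040 to 7140 CPM at 7 dpf and 3060 to 3280 CPM at 10 dpf. Type I collagen col1a1a read 365, 336 and 379 CPM at 7 dpf and 54.1, 62.0 and 77.5 CPM at 10 dpf (log2 fold change of -2.48 ± 0.21, adjusted p = 1.20e-05). Its partner chain COL1A2 read 333, 299.5 and 348 CPM at 7 dpf and 84.1, 85.9 and 100.9 CPM at 10 dpf. Type VI collagen COL6A2, of muscle and tendon sheaths, read 80.2, 91.2 and 88.9 CPM at 7 dpf and 24.9, 28.3 and 27.6 CPM at 10 dpf. These chains were lower in every 10 dpf library. Lumican (LUM), which spaces collagen fibrils, stood at 24.97, 28.7 and 25.96 CPM at 7 dpf and 6.54, 6.17 and 5.87 CPM at 10 dpf. Tenomodulin (TNMD), a marker of tendon cells, stood at 42.7, 56.6 and 49.2 CPM at 7 dpf and 13.7, 15.3 and 14.4 CPM at 10 dpf (log2 fold change of -1.78 ± 0.10, adjusted p = 9.84e-08). The genes that rose were TIMP4 (ENSDARG00000100795) and TIMP4 (ENSDARG00000111805), both inhibitors of matrix metalloproteinases, and the second read 2.45, 3.27 and 3.18 CPM at 7 dpf and 6.54, 5.66 and 6.72 CPM at 10 dpf. Of 33 tested genes whose symbol begins with the collagen stem, 31 fell and 0 rose (median -1.46). Actinotrichia, the elastic rods of the larval fin fold, are built from proteins of the and genes, and all of these that were tested fell: and1 read 149.8, 193 and 159.5 CPM at 7 dpf and 47.9, 55.8 and 51.5 CPM at 10 dpf, and2 read 301, 341 and 281 CPM at 7 dpf and 156, 164 and 151 CPM at 10 dpf. and3 read 78.4, 93.8 and 97.2 CPM at 7 dpf and 31.3, 34.7 and 30.4 CPM at 10 dpf. In each the ages did not overlap.

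Transcripts of fast muscle, the bulk of the trunk, fell as a group. Of 62 genes, 41 fell and 1 rose (median -0.57), and they summed to 89700 to 102000 CPM at 7 dpf and 71000 to 73200 CPM at 10 dpf. The fall was uneven. Fast myosin heavy chain myhz2 did not pass the test, at 5051, 5549 and 5276 CPM at 7 dpf and 4912, 4488 and 4928 CPM at 10 dpf (log2 fold change of -0.15 ± 0.08, adjusted p = 0.209). The fast regulatory light chain MYL11 (ENSDARG00000002589) read 669, 745 and 648 CPM at 7 dpf and 202, 181 and 177 CPM at 10 dpf, a 3.68-fold fall (log2 fold change of -1.88 ± 0.09, adjusted p = 7.21e-08). Another gene with the MYL11 symbol was lower by less, at 3720, 4280 and 3690 CPM at 7 dpf and 2850, 2660 and 2180 CPM at 10 dpf. Parvalbumin pvalb1, the calcium buffer that speeds relaxation, read 7562, 7677 and 7844 CPM at 7 dpf and 2867, 2720 and 2394 CPM at 10 dpf. Its paralog pvalb4 read 599, 709.7 and 616 CPM at 7 dpf and 204, 241 and 187 CPM at 10 dpf. Both parvalbumins fell. By number of reads the largest fall among tested genes with a symbol was that of skeletal actin actc1b, at 14128, 16663 and 15427 CPM at 7 dpf and 5998, 6648 and 6900 CPM at 10 dpf (log2 fold change of -1.24 ± 0.09, adjusted p = 1.11e-06). Fast light chain MYL1 (ENSDARG00000017441) read 4357, 4991 and 4755 CPM at 7 dpf and 2033, 1973 and 1786 CPM at 10 dpf (log2 fold change of -1.28 ± 0.09, adjusted p = 5.24e-07). The calcium pump atp2a1 read 7371, 8482 and 7970 CPM at 7 dpf and 4021, 4353 and 4270 CPM at 10 dpf and fell (log2 fold change of -0.91 ± 0.08, adjusted p = 4.96e-06), while the related gene atp2a1l was the fast list's 1 rise, at 4202, 5126 and 4930 CPM at 7 dpf and 7108, 7542 and 7758 CPM at 10 dpf (log2 fold change of 0.65 ± 0.10, adjusted p = 3.12e-04).

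Among slow and heart muscle genes 17 of 47 fell and 2 rose (median -0.34). Slow genes fell in 9 of 13 and rose in 2 (median -0.55), and heart genes fell in 8 of 34 and rose in 0 (median -0.29). The slow genes summed to 15800, 18500 and 17200 CPM at 7 dpf and 7850, 8500 and 8740 CPM at 10 dpf. Most of that sum, at both ages, was the actin actc1b given above. The fall of the sum therefore does not describe the other slow genes. The rises were slow-fibre genes: slow myosin heavy chain smyhc1 read 903, 955 and 958 CPM at 7 dpf and 1228, 1206 and 1248 CPM at 10 dpf (log2 fold change of 0.39 ± 0.08, adjusted p = 0.00275). Slow troponin T TNNT1 read 8.91, 9.28 and 9.17 CPM at 7 dpf and 11.2, 12.3 and 10.8 CPM at 10 dpf. Troponin C TNNC1, of slow fibres and heart, fell, at 82.2, 91.8 and 84.2 CPM at 7 dpf and 54.7, 56.4 and 50.9 CPM at 10 dpf. In smooth muscle 9 of 24 genes fell and 2 rose, and alpha actin acta2 was among the falls, at 154, 137 and 127 CPM at 7 dpf and 80.6, 84.6 and 79.8 CPM at 10 dpf (log2 fold change of -0.77 ± 0.18, adjusted p = 0.00777). Of myogenesis and muscle atrophy genes, 5 of 27 rose and 6 fell. The muscle determination factor MYOD1 fell, at 17.2, 14.7 and 13.5 CPM at 7 dpf and 9.69, 11.8 and 8.77 CPM at 10 dpf, and the fusion peptide gene mymx, which merges myoblasts into fibres, fell, at 4.44, 5.43 and 5.09 CPM at 7 dpf and 1.74, 1.78 and 2.48 CPM at 10 dpf (log2 fold change of -1.33 ± 0.16, adjusted p = 6.33e-05). The ubiquitin ligase FBXO32 (atrogin-1), which marks muscle protein for breakdown, rose, at 135, 123 and 122 CPM at 7 dpf and 185, 183 and 149 CPM at 10 dpf (log2 fold change of 0.44 ± 0.13, adjusted p = 0.0198). Its activator FOXO1 (ENSDARG00000099555) also rose, at 24.2, 22.4 and 23.2 CPM at 7 dpf and 34.4, 33.7 and 33.2 CPM at 10 dpf. In these last genes the 3 libraries of each age stood apart. Leaving out 1 library ended the call of TNNT1 (without Control_7dpf replicate 1 or Control_10dpf replicate 2, adjusted p = 0.0504 to 0.0802), MYOD1 (without Control_7dpf replicate 1, adjusted p = 0.0530) and FBXO32 (without Control_7dpf replicates 2 or 3 or Control_10dpf replicates 1 or 2, adjusted p = 0.0646 to 0.0717). On removal of 1 library, 3 genes of the myogenesis and muscle atrophy list rose (without Control_7dpf replicate 2 or Control_10dpf replicates 1 or 2) and 3 genes of the myogenesis and muscle atrophy list fell (without Control_10dpf replicate 1).

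In skin, 7 of 15 keratin genes fell and 2 rose. Of 55 skin and fin genes, 7 rose and 17 fell, the latter including the fin rod genes above. Keratin 4 (krt4), of the outer periderm, read 2281, 2466 and 4057 CPM at 7 dpf and 1609, 1489 and 1520 CPM at 10 dpf (log2 fold change of -0.93 ± 0.18, adjusted p = 0.00249). krt5, a basal and intermediate layer keratin, read 689, 738 and 1052 CPM at 7 dpf and 357, 412 and 353 CPM at 10 dpf (log2 fold change of -1.15 ± 0.16, adjusted p = 2.00e-04). Replicate 3 at 7 dpf was the highest library for both. Summed over the 15 tested keratin genes of the list, it held 13100 CPM, against 8380 and 8630 CPM in the other 7 dpf libraries and 6490 to 6980 CPM at 10 dpf. Without it krt4 and krt5 still fell, with log2 fold changes of -0.63 and -0.94, and 15 to 18 genes of the list fell in the fits that left out 1 library. Keratin krt17 rose, at 368, 406 and 727 CPM at 7 dpf and 1181, 1376 and 1253 CPM at 10 dpf (log2 fold change of 1.34 ± 0.28, adjusted p = 0.00590). col7a1, the anchoring collagen under the epidermis, fell, at 17.7, 20.2 and 21.9 CPM at 7 dpf and 6.54, 6.67 and 6.69 CPM at 10 dpf. Without 1 of the libraries, 4 genes of the skin and fins list rose (without Control_10dpf replicate 1). With voom, 15 skin and fins genes rose. With DESeq2, 12 skin and fins genes rose.

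Ionocytes are the skin and gill cells that take up salt and calcium from fresh water and excrete acid and ammonia. In this list 9 of 50 genes rose and 12 fell, with transporters on both sides. The calcium channel TRPV6 fell, at 20.6, 21.1 and 17.2 CPM at 7 dpf and 9.26, 8.88 and 7.14 CPM at 10 dpf (log2 fold change of -1.22 ± 0.16, adjusted p = 1.03e-04). The sodium pump subunit atp1a1a.3 read 74.3, 80.8 and 72.8 CPM at 7 dpf and 135, 129.6 and 123 CPM at 10 dpf (log2 fold change of 0.77 ± 0.09, adjusted p = 2.91e-05). The sodium-proton exchanger slc9a3.2 read 9.32, 8.38 and 9.09 CPM at 7 dpf and 16.4, 17.8 and 14.2 CPM at 10 dpf (log2 fold change of 0.85 ± 0.12, adjusted p = 2.47e-04). The ammonia channel RHCG (ENSDARG00000007080) read 22.02, 29.6 and 75.1 CPM at 7 dpf and 191, 243 and 199 CPM at 10 dpf (log2 fold change of 2.33 ± 0.43, adjusted p = 0.00402). These 3 transporters rose. ATP6V1A (ENSDARG00000034534), a subunit of the proton pump with which ionocytes acidify the water at the skin, fell, at 80.7, 80.2 and 78.4 CPM at 7 dpf and 54.3, 56.5 and 55.0 CPM at 10 dpf (log2 fold change of -0.53 ± 0.07, adjusted p = 8.04e-05). Lysosomes use this kind of pump as well, so that the fall cannot be placed in ionocytes. Of 20 tested genes with the symbol stem atp6v, 12 fell and 1 rose (median -0.26). In the list of claudins and tight junctions 11 of 42 genes rose and 7 fell. Claudins, the barrier proteins of these junctions, were mixed, with 5 of 29 up and 6 down. Of the 13 other junction genes 6 rose and 1 fell. In the kidney 9 of 38 genes fell and 0 rose. The renal phosphate transporter SLC34A1 (ENSDARG00000028824) read 5.98, 6.92 and 4.27 CPM at 7 dpf and 2.86, 3.55 and 2.33 CPM at 10 dpf (log2 fold change of -0.96 ± 0.17, adjusted p = 0.00116). The distal salt transporter SLC12A3 read 19.97, 18.4 and 20.2 CPM at 7 dpf and 13.0, 13.9 and 14.8 CPM at 10 dpf (log2 fold change of -0.49 ± 0.09, adjusted p = 0.00104). With 1 library left out, 7 genes of the claudins and tight junctions list rose (without Control_7dpf replicate 2).

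Pigment cell genes fell in 27 of 52 and rose in 3 (median -0.38). In yellow xanthophores the pteridine enzyme gch2 read 31.1, 34.3 and 32.6 CPM at 7 dpf and 7.91, 6.40 and 8.02 CPM at 10 dpf (log2 fold change of -2.13 ± 0.11, adjusted p = 7.21e-08). In silvery iridophores the purine enzyme pnp4a read 11.7, 11.5 and 12.7 CPM at 7 dpf and 4.82, 3.55 and 4.05 CPM at 10 dpf (log2 fold change of -1.52 ± 0.15, adjusted p = 1.04e-05). In black melanophores the melanin enzyme TYRP1 (ENSDARG00000056151) read 110.3, 103 and 112 CPM at 7 dpf and 64.8, 65.0 and 69.4 CPM at 10 dpf (log2 fold change of -0.71 ± 0.08, adjusted p = 3.52e-05). All pigment classes thus held falling genes, and none of these overlapped between the ages. When a library was left out, 0 to 1 genes of the pigment cells list rose (without Control_7dpf replicates 1 or 2 or Control_10dpf replicates 1, 2 or 3).

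In the nervous system, genes of progenitors, neurons and glia fell. Neural progenitors divide along the ventricles and hand over, through Notch signals and Sox factors, to young neurons that extend axons; mature neurons are marked by vesicle and synapse proteins. Of 54 progenitor and neurogenesis genes 34 fell and 0 rose (median -0.53). Of 88 neuron and synapse genes, 39 fell and 1 rose (median -0.29). Within that list, pan-neuronal genes fell in 12 of 15 and rose in 0 (median -0.9). Synapse genes fell in 13 of 27 and rose in 1, and transmitter genes fell in 10 of 21 and rose in 0. Receptor genes fell in 1 of 18 and rose in 0, and plasticity genes fell in 3 of 7 and rose in 0. The counts were not tested against each other. Radial glia, the stem cells of the fish brain, express FABP7 (ENSDARG00000007697), a fatty acid binding protein, which read 89.6, 98.5 and 90.8 CPM at 7 dpf and 34.9, 40.3 and 34.8 CPM at 10 dpf (log2 fold change of -1.34 ± 0.08, adjusted p = 1.56e-07). The Notch target her4.1 read 3.60, 3.46 and 2.68 CPM at 7 dpf and 1.04, 1.14 and 1.21 CPM at 10 dpf (log2 fold change of -1.54 ± 0.15, adjusted p = 1.23e-05). In young neurons SOX11 (ENSDARG00000095743), a Sox factor, read 68.3, 65.3 and 59.96 CPM at 7 dpf and 37.8, 33.1 and 32.4 CPM at 10 dpf (log2 fold change of -0.91 ± 0.09, adjusted p = 7.96e-06). Tubulin tubb5 read 83.5, 97.1 and 87.5 CPM at 7 dpf and 11.7, 15.9 and 13.2 CPM at 10 dpf. All of these fell with no overlap. The growth cone protein gap43 also fell, at 28.1, 29.6 and 27.98 CPM at 7 dpf and 11.3, 12.2 and 11.5 CPM at 10 dpf (log2 fold change of -1.29 ± 0.09, adjusted p = 4.05e-07). Among the pan-neuronal genes, those of the RNA-binding proteins ELAVL3 and ELAVL4 did not pass the test. ELAVL3 read 235, 294 and 300 CPM at 7 dpf and 181, 222 and 241 CPM at 10 dpf. ELAVL4 read 271, 307 and 324 CPM at 7 dpf and 202, 239.7 and 265 CPM at 10 dpf. BSN (ENSDARG00000111110), which organizes the presynaptic zone, was the neuron list's 1 rise, at 29.6, 29.5 and 40.8 CPM at 7 dpf and 44.2, 46.0 and 52.9 CPM at 10 dpf (log2 fold change of 0.52 ± 0.16, adjusted p = 0.0270). With 1 library removed the test was not passed by BSN (without Control_7dpf replicates 1 or 2 or Control_10dpf replicates 2 or 3, adjusted p = 0.0535 to 0.103).

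Myelin and glia genes fell in 25 of 39 and rose in 1. Myelin basic protein mbpa, which compacts the myelin sheath, read 126, 148 and 136 CPM at 7 dpf and 103, 107 and 106 CPM at 10 dpf (log2 fold change of -0.38 ± 0.08, adjusted p = 0.00296). GFAP, the filament of radial glia, read 194, 238 and 196 CPM at 7 dpf and 119.6, 141 and 118 CPM at 10 dpf (log2 fold change of -0.73 ± 0.09, adjusted p = 9.44e-05). In the list of sensory hair cells and ear, which also holds olfactory genes, 14 of 41 genes fell and 1 rose. Hair cell genes fell in 8 of 22, otolith genes in 3 of 11 and olfactory genes in 3 of 8. Otoferlin (OTOF (ENSDARG00000020581)), which releases transmitter from hair cells, read 33.5, 30.9 and 37.4 CPM at 7 dpf and 19.97, 18.6 and 19.8 CPM at 10 dpf (log2 fold change of -0.80 ± 0.09, adjusted p = 2.32e-05). Another gene with the OTOF symbol overlapped between the ages, at 37.7, 42.0 and 47.3 CPM at 7 dpf and 35.5, 36.7 and 37.8 CPM at 10 dpf. The rise was stm, starmaker, a protein of the ear stones, at 199, 221 and 198 CPM at 7 dpf and 246, 237 and 232 CPM at 10 dpf (log2 fold change of 0.21 ± 0.07, adjusted p = 0.0323). Among pituitary and hypothalamic peptides 2 of 38 rose and 5 fell. The rises were growth hormone gh1, at 29.8, 30.6 and 32.5 CPM at 7 dpf and 64.7, 64.0 and 64.1 CPM at 10 dpf (log2 fold change of 1.05 ± 0.06, adjusted p = 2.25e-07), and prolactin prl, at 3.27, 4.46 and 3.59 CPM at 7 dpf and 5.78, 5.203 and 4.84 CPM at 10 dpf (log2 fold change of 0.50 ± 0.17, adjusted p = 0.0386). The thyroid and cortisol axes had 3 rises and 2 falls among 30 genes. Once 1 library was left out, no call was made for stm (without Control_7dpf replicates 1 or 3 or Control_10dpf replicates 1 or 2, adjusted p = 0.0740 to 0.113) and prl (without Control_7dpf replicates 1 or 3 or Control_10dpf replicates 1 or 2, adjusted p = 0.0806 to 0.126). On removal of 1 library, 3 genes of the pituitary and hypothalamic peptides list fell (without Control_7dpf replicate 3 or Control_10dpf replicates 1 or 2) and 1 gene of the thyroid and cortisol axes list rose (without Control_10dpf replicate 1). With the control libraries fitted alone, 4 thyroid and cortisol axes genes fell. With voom, 3 sensory hair cells and ear genes rose, 4 pituitary and hypothalamic peptides genes rose and 4 thyroid and cortisol axes genes fell.

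Genes of dividing cells fell. Before a cell divides it copies its DNA with the MCM helicase and PCNA clamp (S phase), then builds a spindle and separates its chromosomes (mitosis). Of 85 mitosis genes 57 fell and 1 rose (median -0.75), and of 67 S phase genes 30 fell and 4 rose (median -0.35). Without Control_7dpf replicate 1 the number of mitosis genes that fell was 38. The helicase subunit MCM5 read 22.4, 21.2 and 16.6 CPM at 7 dpf and 8.66, 7.83 and 7.59 CPM at 10 dpf (log2 fold change of -1.32 ± 0.15, adjusted p = 3.17e-05). PCNA, the clamp, read 57.8, 48.6 and 44.6 CPM at 7 dpf and 39.7, 33.4 and 30.8 CPM at 10 dpf (log2 fold change of -0.54 ± 0.10, adjusted p = 0.00187). The spindle protein NUSAP1 read 9.83, 10.7 and 8.16 CPM at 7 dpf and 3.29, 2.71 and 2.995 CPM at 10 dpf (log2 fold change of -1.67 ± 0.13, adjusted p = 1.52e-06). TPX2, which targets a kinase to the spindle, read 13.1, 12.03 and 10.1 CPM at 7 dpf and 6.42, 5.14 and 5.14 CPM at 10 dpf. CCND1, the cyclin that commits cells to a cycle, read 114, 106 and 93.0 CPM at 7 dpf and 50.6, 57.8 and 57.6 CPM at 10 dpf (log2 fold change of -0.92 ± 0.12, adjusted p = 8.06e-05). The cycle inhibitor cdkn1a (p21) fell as well, at 64.5, 79.3 and 76.1 CPM at 7 dpf and 38.7, 32.4 and 28.2 CPM at 10 dpf (log2 fold change of -1.15 ± 0.13, adjusted p = 4.76e-05). GMNN, an inhibitor of replication licensing, was among the 4 rises of the S phase list, at 4.18, 3.85 and 3.48 CPM at 7 dpf and 4.99, 5.22 and 5.81 CPM at 10 dpf. DNA repair genes moved both ways, 10 up and 9 down of 71, near the background. Of 36 apoptosis genes 8 rose and 3 fell, the rises including bbc3 (puma), an inducer of cell death, at 22.3, 22.7 and 25.3 CPM at 7 dpf and 40.6, 39.4 and 39.2 CPM at 10 dpf (log2 fold change of 0.76 ± 0.07, adjusted p = 7.00e-06). The call was lost, with 1 library left out, for GMNN (without Control_7dpf replicate 3 or Control_10dpf replicate 3, adjusted p = 0.0529 to 0.0577). Without 1 of the libraries, 1 to 2 genes of the DNA replication and S phase list rose (without Control_7dpf replicate 3 or Control_10dpf replicate 2), 5 to 6 genes of the DNA repair and damage response list rose (without Control_7dpf replicates 2 or 3 or Control_10dpf replicate 1) and 0 to 1 genes of the apoptosis list fell (without Control_7dpf replicates 1 or 2 or Control_10dpf replicates 2 or 3). With voom, 7 DNA replication and S phase genes rose.

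Genes that make and break down proteins rose, and with them the chaperonin. Ribosomes are assembled in the nucleolus from ribosomal RNA and a fixed set of ribosomal proteins, the chaperonin folds actin and tubulin, and the proteasome cuts up ubiquitin-tagged proteins. Of 83 ribosomal protein genes 78 rose and 0 fell (median 0.47). Together they took 92900 to 96800 CPM at 7 dpf and 115000 to 141000 CPM at 10 dpf, more than 1 read in 10 at the later age. RPL3 of the large subunit read 3653, 3547 and 3536 CPM at 7 dpf and 5027, 4884 and 4337 CPM at 10 dpf (log2 fold change of 0.41 ± 0.10, adjusted p = 0.00578). RPL4 read 2976, 3039 and 2897 CPM at 7 dpf and 4453, 4229 and 3888 CPM at 10 dpf (log2 fold change of 0.50 ± 0.09, adjusted p = 9.21e-04). Every 10 dpf library was above every 7 dpf library for both. Ribosome biogenesis genes rose in 48 of 93 with 0 falls (median 0.31). The nucleolar helicase DDX21 read 784, 768 and 829 CPM at 7 dpf and 1598, 1536 and 1566 CPM at 10 dpf (log2 fold change of 0.98 ± 0.08, adjusted p = 2.28e-06), while the methyltransferase FBL (fibrillarin) did not pass the test, at 122, 111 and 98.5 CPM at 7 dpf and 116, 104 and 98.9 CPM at 10 dpf. Of translation factors and tRNA synthetases 27 of 45 rose and 3 fell. The elongation factor eef1a1l1 read 11319, 11980 and 11060 CPM at 7 dpf and 14360, 14912 and 13513 CPM at 10 dpf (log2 fold change of 0.32 ± 0.09, adjusted p = 0.0175). The isoleucine tRNA synthetase IARS1 read 65.7, 53.2 and 56.9 CPM at 7 dpf and 110.1, 105 and 121 CPM at 10 dpf. Leaving out 1 library ended the call of eef1a1l1 (without Control_7dpf replicate 3 or Control_10dpf replicate 2, adjusted p = 0.0672 to 0.0694).

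Proteasome genes rose in 36 of 45 with 0 falls (median 0.42), and they summed to 2890 to 3380 CPM at 7 dpf and 4240 to 4720 CPM at 10 dpf. The core subunit PSMB7 read 159.6, 138 and 149 CPM at 7 dpf and 319, 298 and 278 CPM at 10 dpf (log2 fold change of 1.0 ± 0.09, adjusted p = 5.35e-06). PSMD13 of the regulatory cap read 103, 91.0 and 94.2 CPM at 7 dpf and 199, 185 and 174 CPM at 10 dpf (log2 fold change of 0.95 ± 0.09, adjusted p = 5.66e-06). All 8 tested chaperonin genes of the cct family rose (median 0.59); CCT7 read 359, 339 and 308 CPM at 7 dpf and 582, 526 and 513 CPM at 10 dpf (log2 fold change of 0.69 ± 0.10, adjusted p = 2.64e-04). Within the heat shock list, which holds them, 14 of 42 rose and 3 fell. Of those rises 9 were chaperonin genes, and of 29 cytosolic heat shock genes 4 rose and 3 fell, near the background. The falls included the small chaperone HSPB1, at 43.5, 15.7 and 12.8 CPM at 7 dpf and 7.62, 9.11 and 7.23 CPM at 10 dpf. The unfolded protein response of the endoplasmic reticulum had 3 rises and 1 fall among 43 genes, shares below the background. These calls lay among its signalling and degradation genes. Its 20 chaperones summed to 1640, 1480 and 845 CPM at 7 dpf and 1320, 1240 and 1270 CPM at 10 dpf, with replicate 3 at 7 dpf the lowest. The median of the list was 0.02, and -0.15 without that library. In the list of lysosomes, the cell's digestive vesicles, and autophagy, 40 of 99 genes rose and 5 fell. Hydrolases rose in 26 of 50 and fell in 0. Membrane genes rose in 6 of 22 and fell in 4, and autophagy genes rose in 8 of 27 and fell in 1. The protease cathepsin D (CTSD) read 189.5, 167 and 163 CPM at 7 dpf and 269, 262 and 261 CPM at 10 dpf (log2 fold change of 0.61 ± 0.08, adjusted p = 1.06e-04). The fucose-releasing enzyme FUCA1 (ENSDARG00000035890) read 102, 93.7 and 100.7 CPM at 7 dpf and 183, 200.1 and 224 CPM at 10 dpf (log2 fold change of 1.03 ± 0.09, adjusted p = 5.02e-06). The peptidase TPP1 read 51.8, 45.7 and 47.3 CPM at 7 dpf and 79.3, 72.7 and 76.4 CPM at 10 dpf (log2 fold change of 0.66 ± 0.08, adjusted p = 3.89e-05). The falls included the proton pump subunit ATP6V0A1 (ENSDARG00000015174), at 83.2, 96.0 and 103 CPM at 7 dpf and 51.2, 58.8 and 71.1 CPM at 10 dpf (log2 fold change of -0.64 ± 0.13, adjusted p = 0.00237). With 1 library removed the test was not passed by HSPB1 (without Control_10dpf replicates 1 or 3, adjusted p = 0.0551 to 0.0617). With 1 library left out, 1 gene of the heat shock list fell (without Control_10dpf replicates 1 or 3), 5 genes of the unfolded protein response list rose (without Control_7dpf replicate 1), 7 genes of the unfolded protein response list fell (without Control_7dpf replicate 3) and 2 to 3 genes of the lysosome and autophagy list fell (without Control_7dpf replicates 1 or 2 or Control_10dpf replicates 1, 2 or 3). With voom, 5 unfolded protein response genes rose and 9 lysosome and autophagy genes fell.

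**Figure D3:**
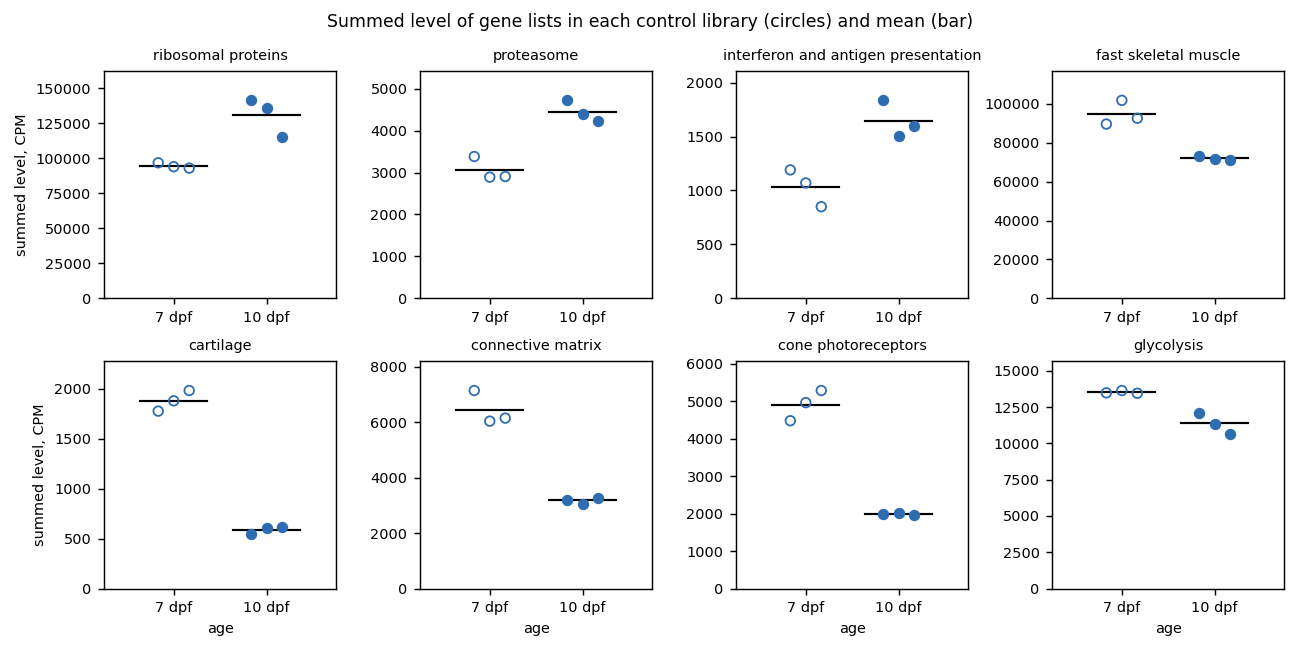
Summed level in each control library, in CPM, of the tested genes of 8 gene lists, with open circles for 7 dpf, filled circles for 10 dpf and a separate axis from 0 for each list. The ages do not overlap in any of these panels; ribosomal proteins, the proteasome and interferon and antigen presentation genes are higher at 10 dpf and the rest are lower.

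Genes of sugar and oxygen use fell. Glycolysis splits glucose to pyruvate, and the respiratory chain in mitochondria passes electrons to oxygen and makes ATP. Of 41 glycolysis genes 26 fell and 1 rose (median -0.55). Pyruvate kinase (PKM (ENSDARG00000099860)) read 354, 377 and 432 CPM at 7 dpf and 155, 146 and 147 CPM at 10 dpf (log2 fold change of -1.38 ± 0.08, adjusted p = 2.03e-07). Hexokinase (HK1) read 36.6, 33.5 and 33.4 CPM at 7 dpf and 19.2, 20.8 and 20.7 CPM at 10 dpf (log2 fold change of -0.77 ± 0.09, adjusted p = 2.86e-05). The rise was lactate dehydrogenase ldhbb, at 27.9, 30.4 and 25.1 CPM at 7 dpf and 41.5, 42.4 and 34.7 CPM at 10 dpf (log2 fold change of 0.51 ± 0.15, adjusted p = 0.0186). Respiratory chain genes of the nucleus fell in 48 of 90 and rose in 0. ATP synthase subunit ATP5F1B read 1189, 1200 and 1192 CPM at 7 dpf and 775, 784 and 773 CPM at 10 dpf (log2 fold change of -0.62 ± 0.07, adjusted p = 4.64e-05). Of the 13 genes of the mitochondrial genome 9 fell and 0 rose. Cytochrome b (MT-CYB) read 2560, 2778 and 2610 CPM at 7 dpf and 1984, 1916 and 2062 CPM at 10 dpf (log2 fold change of -0.41 ± 0.08, adjusted p = 0.00155). Most reads of this list lay on its 3 genes of complex IV, of which 0 were called (median -0.11). These summed to 22000, 24300 and 22900 CPM at 7 dpf and 22800, 21600 and 20200 CPM at 10 dpf, with overlap. Once 1 library was left out, no call was made for ldhbb (without Control_7dpf replicate 3 or Control_10dpf replicates 1 or 2, adjusted p = 0.0590 to 0.0723). When a library was left out, 5 genes of the mitochondrial genome list fell (without Control_7dpf replicate 2 or Control_10dpf replicate 2).

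Among genes of fatty acid oxidation and fasting 27 of 65 fell and 5 rose (median -0.22). Carnitine transferase CPT1B, the muscle form of the gate through which fatty acids enter mitochondria, fell, at 12.3, 15.8 and 9.23 CPM at 7 dpf and 4.56, 5.08 and 4.05 CPM at 10 dpf (log2 fold change of -1.44 ± 0.16, adjusted p = 3.40e-05). The falls lay mostly among the enzymes of oxidation, with 20 of 31. The rises were all among the fasting genes, of which 5 of 29 rose and 4 fell, near the background shares. The uncoupling protein ucp3 read 79.5, 95.8 and 89.2 CPM at 7 dpf and 169, 133 and 105 CPM at 10 dpf (log2 fold change of 0.62 ± 0.14, adjusted p = 0.00621). The liver and gut factor creb3l3l read 32.7, 38.3 and 33.9 CPM at 7 dpf and 51.5, 56.2 and 52.2 CPM at 10 dpf (log2 fold change of 0.61 ± 0.07, adjusted p = 5.68e-05). Of growth factor and insulin-like signalling genes 12 of 48 rose and 13 fell. Ligands rose in 1 of 16 and fell in 6, and binding proteins rose in 1 of 10 and fell in 5 (median -0.87). Receptors rose in 2 of 7 and fell in 0, and signal genes rose in 8 of 15 and fell in 2. The 1 binding protein that rose was igfbp1b, which holds insulin-like growth factors away from their receptor. It read 53.7, 33.6 and 30.0 CPM at 7 dpf and 139, 120.5 and 93.9 CPM at 10 dpf (log2 fold change of 1.59 ± 0.42, adjusted p = 0.0199). The mTOR inhibitors SESN1 and DDIT4 rose as well: SESN1 read 521, 587 and 623 CPM at 7 dpf and 1098, 1106 and 905 CPM at 10 dpf (log2 fold change of 0.85 ± 0.10, adjusted p = 3.38e-05). DDIT4 read 104, 132 and 140.1 CPM at 7 dpf and 243, 207 and 154 CPM at 10 dpf (log2 fold change of 0.69 ± 0.16, adjusted p = 0.00556). CISH, a target and brake of growth hormone signals, read 93.8, 118 and 93.3 CPM at 7 dpf and 178, 176 and 174 CPM at 10 dpf (log2 fold change of 0.79 ± 0.14, adjusted p = 0.00132). Whether the larvae of either age had been fed was not tested by any value here. The call was lost, with 1 library left out, for igfbp1b (without Control_7dpf replicates 2 or 3 or Control_10dpf replicate 1, adjusted p = 0.0628 to 0.0738).

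Of cholesterol synthesis genes 4 of 35 rose and 9 fell (median -0.32), and the early enzyme HMGCS1 read 44.1, 34.6 and 36.0 CPM at 7 dpf and 20.2, 19.8 and 18.9 CPM at 10 dpf (log2 fold change of -0.96 ± 0.13, adjusted p = 1.69e-04). Fatty acid synthesis and storage had 7 rises and 7 falls among 47, and lipoproteins and yolk 4 and 2 among 22. All 22 were lipoprotein genes, as 0 of the 7 genes of yolk proteins (vitellogenins) passed the filter for testing. The cholesterol exporter ABCA1 rose, at 226, 229.5 and 239.8 CPM at 7 dpf and 321, 335 and 359 CPM at 10 dpf (log2 fold change of 0.55 ± 0.07, adjusted p = 1.00e-04). Among antioxidant and iron genes 4 of 56 rose and 13 fell, and among xenobiotic enzymes 6 of 61 rose and 3 fell. The sulfotransferase sult1st7 was the xenobiotic gene with the largest rise, at 0.337, 0.226 and 0.219 CPM at 7 dpf and 3.15, 3.12 and 3.96 CPM at 10 dpf (log2 fold change of 3.62 ± 0.28, adjusted p = 1.59e-06). In retinoic acid metabolism 13 of 33 genes fell and 1 rose (median -0.47). The degrading enzyme CYP26B1 read 55.4, 50.8 and 51.7 CPM at 7 dpf and 31.4, 29.2 and 33.7 CPM at 10 dpf (log2 fold change of -0.75 ± 0.08, adjusted p = 1.38e-05). Hypoxia response genes moved little, with 5 rises and 6 falls of 35. On removal of 1 library, 2 genes of the cholesterol synthesis list rose (without Control_7dpf replicate 1 or Control_10dpf replicate 1), 3 to 5 genes of the cholesterol synthesis list fell (without Control_7dpf replicate 1 or Control_10dpf replicate 2) and 2 genes of the lipoproteins and yolk list rose (without Control_7dpf replicate 3 or Control_10dpf replicates 1 or 2). With the control libraries fitted alone, 15 cholesterol synthesis genes fell, 11 fatty acid synthesis and storage genes fell, 7 lipoproteins and yolk genes fell, 22 antioxidant and iron genes fell and 13 xenobiotic metabolism genes fell. With voom, 11 fatty acid synthesis and storage genes fell, 4 lipoproteins and yolk genes fell, 21 antioxidant and iron genes fell, 10 xenobiotic metabolism genes fell and 11 hypoxia response genes fell.

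Genes of antigen presentation rose. Class I molecules with beta-2-microglobulin show peptides from inside the cell to T cells, class II molecules show peptides taken up from outside, and interferon raises both. Of 56 genes of interferon response and antigen presentation 24 rose and 1 fell (median 0.67). Most rises were on the antigen presentation side, with 19 of 27 genes up, against 5 of 29 interferon genes. Beta-2-microglobulin b2m read 9.61, 7.34 and 4.66 CPM at 7 dpf and 37.8, 28.1 and 28.9 CPM at 10 dpf (log2 fold change of 2.12 ± 0.32, adjusted p = 8.60e-04). Its relative b2ml read 392, 396 and 350.3 CPM at 7 dpf and 694, 590.2 and 634 CPM at 10 dpf (log2 fold change of 0.75 ± 0.10, adjusted p = 1.51e-04). The class I gene mhc1uba read 3.09, 2.78 and 2.63 CPM at 7 dpf and 7.60, 9.70 and 8.62 CPM at 10 dpf (log2 fold change of 1.60 ± 0.34, adjusted p = 0.00502). These genes were higher in every 10 dpf library. nlrc5, the activator of class I genes, read 0.483, 0.453 and 0.602 CPM at 7 dpf and 1.67, 1.24 and 1.33 CPM at 10 dpf (log2 fold change of 1.46 ± 0.24, adjusted p = 5.04e-04). The interferon brake SOCS1 read 30.3, 39.7 and 34.6 CPM at 7 dpf and 90.2, 69.7 and 77.8 CPM at 10 dpf (log2 fold change of 1.19 ± 0.15, adjusted p = 1.27e-04). The class I gene mhc1zca was the fall, at 16.4, 19.9 and 19.3 CPM at 7 dpf and 10.5, 10.8 and 9.20 CPM at 10 dpf (log2 fold change of -0.86 ± 0.11, adjusted p = 6.03e-05). Class I genes vary between zebrafish haplotypes, so that 1 family's reads may fall on another gene in these files.

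Macrophage and neutrophil genes rose in 14 of 58 and fell in 1 (median 0.28). The macrophage pore protein MPEG1 (ENSDARG00000043093) read 49.2, 43.9 and 32.0 CPM at 7 dpf and 83.9, 79.2 and 90.9 CPM at 10 dpf (log2 fold change of 1.02 ± 0.22, adjusted p = 0.00602). The macrophage gene MFAP4 (ENSDARG00000038683) read 1.58, 1.07 and 1.04 CPM at 7 dpf and 14.5, 8.07 and 10.5 CPM at 10 dpf (log2 fold change of 3.12 ± 0.34, adjusted p = 5.92e-05). Other MFAP4 genes differed. ENSDARG00000090557 was higher in every 10 dpf library, at 1.85, 1.71 and 0.657 CPM and then 6.15, 5.64 and 4.81 CPM. ENSDARG00000088745 overlapped, at 3.62, 1.52 and 1.18 CPM and then 2.06, 1.86 and 1.75 CPM, as did ENSDARG00000090783. The macrophage marker marco also overlapped, at 13.7, 9.83 and 5.94 CPM and then 16.9, 13.6 and 12.6 CPM. Across the 24 macrophage genes the summed level was 360, 300 and 243 CPM at 7 dpf and 478, 432 and 439 CPM at 10 dpf. The neutrophil genes overlapped, at 1250, 1160 and 984 CPM and 1380, 1110 and 1090 CPM. In each of these sums, as in those of the interferon and antigen genes, replicate 3 was the lowest 7 dpf library and replicate 1 the highest. Without replicate 3 at 7 dpf the interferon and antigen list held 19 rises, and without replicate 1 it held 30. Without 1 of the libraries, 8 to 9 genes of the macrophages and neutrophils list rose (without Control_7dpf replicate 3 or Control_10dpf replicate 1). With the control libraries fitted alone, 3 macrophages and neutrophils genes fell.

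Other immune lists were mixed. Inflammation and acute phase genes had 8 rises and 7 falls among 46, mucosal defence and lectin genes 9 and 7 among 34, and lymphocyte and thymus genes 4 and 3 among 29. The defensins parted: defbl2 read 0.234, 0.453 and 0.411 CPM at 7 dpf and 3.76, 3.74 and 3.99 CPM at 10 dpf (log2 fold change of 3.47 ± 0.27, adjusted p = 1.40e-06). defbl1 read 12.7, 7.54 and 9.64 CPM at 7 dpf and 3.41, 3.16 and 3.21 CPM at 10 dpf (log2 fold change of -1.62 ± 0.19, adjusted p = 4.49e-05). RAG1, part of the recombinase that assembles T cell receptor genes, fell, at 11.8, 14.4 and 14.9 CPM at 7 dpf and 7.03, 5.76 and 7.84 CPM at 10 dpf (log2 fold change of -0.99 ± 0.16, adjusted p = 5.70e-04), while the lymphocyte receptor il7r rose, at 1.17, 1.13 and 1.21 CPM at 7 dpf and 4.21, 3.32 and 4.42 CPM at 10 dpf (log2 fold change of 1.76 ± 0.19, adjusted p = 2.21e-05). With 1 library left out, 4 genes of the inflammation and acute phase list fell (without Control_10dpf replicates 1 or 3).

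The digestive organs gave few calls in the fit over all 12 libraries. In the exocrine pancreas 0 of 31 genes rose and 0 fell, although the median was 0.42 and 18 genes were higher in every 10 dpf library than in any 7 dpf library (background 22.5%). Trypsin prss1 read 4338, 4456 and 3717 CPM at 7 dpf and 7153, 6563 and 5381 CPM at 10 dpf (log2 fold change of 0.61 ± 0.62, adjusted p = 0.507). Chymotrypsin ctrb.1 read 2922, 2781 and 2480 CPM at 7 dpf and 4760, 4329 and 3653 CPM at 10 dpf (log2 fold change of 0.64 ± 0.62, adjusted p = 0.482). When the control libraries were fitted alone, 18 pancreas genes rose and 2 fell, so that the call depends on whether the spread of the exposed libraries is counted. In the liver 3 of 51 genes fell and 0 rose, and 16 fell and 4 rose with the control libraries alone. Neither the fatty acid binding protein fabp10a, at 721, 663 and 732 CPM at 7 dpf and 464, 522 and 463 CPM at 10 dpf (log2 fold change of -0.55 ± 0.51, adjusted p = 0.467), nor transferrin tfa, at 928, 1029 and 666 CPM at 7 dpf and 335, 291 and 295 CPM at 10 dpf (log2 fold change of -1.51 ± 0.55, adjusted p = 0.0717), passed the test, though neither overlapped between ages. In the intestine 10 of 55 genes fell and 2 rose; 24 fell with the control libraries alone. The bile acid binding protein FABP6 of the hind gut read 230.2, 256 and 224 CPM at 7 dpf and 129, 104 and 89.1 CPM at 10 dpf (log2 fold change of -1.14 ± 0.12, adjusted p = 2.22e-05). The rises were mucins: muc13a read 37.3, 41.8 and 27.11 CPM at 7 dpf and 64.4, 49.7 and 55.5 CPM at 10 dpf (log2 fold change of 0.68 ± 0.18, adjusted p = 0.0151). muc5.1 read 211, 183 and 98.5 CPM at 7 dpf and 401, 267 and 302 CPM at 10 dpf (log2 fold change of 0.98 ± 0.30, adjusted p = 0.0372). In the endocrine pancreas 3 of 22 genes fell and 0 rose; glucagon gcga read 48.2, 21.96 and 18.6 CPM at 7 dpf and 9.48, 9.89 and 9.77 CPM at 10 dpf (log2 fold change of -1.62 ± 0.40, adjusted p = 0.0152). Insulin ins read 20.8, 21.1 and 16.4 CPM at 7 dpf and 19.4, 18.02 and 14.9 CPM at 10 dpf (log2 fold change of -0.15 ± 0.53, adjusted p = 0.864). Leaving out 1 library ended the call of muc13a (without Control_10dpf replicate 1, adjusted p = 0.0591), muc5.1 (without Control_7dpf replicates 2 or 3 or Control_10dpf replicates 1 or 3, adjusted p = 0.0655 to 0.122) and gcga (without Control_10dpf replicate 1). When a library was left out, 1 gene of the liver list fell (without Control_10dpf replicates 1, 2 or 3), 0 genes of the intestine list rose (without Control_10dpf replicate 1), 6 genes of the intestine list fell (without Control_10dpf replicate 1) and 5 genes of the endocrine pancreas list fell (without Control_10dpf replicate 3). With voom, 2 exocrine pancreas genes rose, 2 liver genes rose, 7 liver genes fell, 18 intestine genes fell and 5 endocrine pancreas genes fell. With DESeq2, 5 liver genes fell.

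Red blood cell genes fell in 18 of 30 and rose in 1 (median -0.60). The transferrin receptor tfr1a, with which young red cells take up iron, read 11.2, 11.3 and 9.56 CPM at 7 dpf and 2.86, 4.54 and 5.69 CPM at 10 dpf (log2 fold change of -1.31 ± 0.23, adjusted p = 0.00108). Globin hbae3 read 169.5, 176 and 127 CPM at 7 dpf and 65.1, 109 and 49.4 CPM at 10 dpf (log2 fold change of -1.08 ± 0.30, adjusted p = 0.0248). The regulator of red cell genes gata1a was the rise, at 0.469, 0.388 and 0.219 CPM at 7 dpf and 1.12, 1.24 and 0.545 CPM at 10 dpf (log2 fold change of 1.40 ± 0.43, adjusted p = 0.0262). In blood vessels and lymphatics 17 of 44 genes fell and 1 rose. The lymphatic receptor FLT4 read 9.98, 9.41 and 10.7 CPM at 7 dpf and 5.56, 6.46 and 6.41 CPM at 10 dpf (log2 fold change of -0.71 ± 0.10, adjusted p = 2.12e-04). The vessel growth receptor kdrl read 51.9, 55.2 and 48.5 CPM at 7 dpf and 37.6, 40.7 and 46.1 CPM at 10 dpf (log2 fold change of -0.32 ± 0.09, adjusted p = 0.0122). Notochord and swim bladder genes fell in 7 of 20 with 0 rises, 6 of 13 in the notochord and 1 of 7 in the swim bladder. Germ cell and gonad genes had 1 rise and 2 falls among 19. Hox and patterning genes fell in 17 of 85 and rose in 6. The falls lay mostly among patterning genes, with 13 of 37 down and 3 up (median -0.3). Of 48 hox genes 4 fell and 3 rose (median 0.03), both below the background shares. With 1 library removed the test was not passed by hbae3 (without Control_7dpf replicates 1 or 2 or Control_10dpf replicates 1 or 3, adjusted p = 0.0607 to 0.0928), gata1a (without Control_7dpf replicates 2 or 3 or Control_10dpf replicates 1 or 2, adjusted p = 0.0623 to 0.104) and kdrl (without Control_7dpf replicate 2 or Control_10dpf replicate 1, adjusted p = 0.0565 to 0.0673). On removal of 1 library, 11 genes of the blood vessels and lymphatics list fell (without Control_10dpf replicate 1), 4 genes of the notochord and swim bladder list fell (without Control_7dpf replicates 1 or 2 or Control_10dpf replicate 3), 3 genes of the hox genes and patterning list rose (without Control_7dpf replicate 3) and 10 to 11 genes of the hox genes and patterning list fell (without Control_7dpf replicate 3 or Control_10dpf replicate 1). With the control libraries fitted alone, 4 notochord and swim bladder genes fell and 6 germ cells and gonad genes rose.

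Circadian clock genes moved both ways, 12 up and 13 down of 49. Of 11 positive regulators 8 rose and 2 fell (median 0.35), and of 19 negative regulators 2 rose and 8 fell (median -0.19). Among 19 output genes 2 rose and 3 fell (median -0.26). Levels of clock genes follow the hour, which is not given for either age, so that hour and age cannot be told apart for them. Period gene PER1 (ENSDARG00000012499) read 209, 223 and 258 CPM at 7 dpf and 156, 132 and 157 CPM at 10 dpf (log2 fold change of -0.63 ± 0.10, adjusted p = 3.04e-04). The repressor nr1d4a read 20.3, 23.8 and 26.6 CPM at 7 dpf and 12.3, 11.3 and 12.2 CPM at 10 dpf (log2 fold change of -0.98 ± 0.10, adjusted p = 1.19e-05). The cryptochrome cry3b read 11.4, 9.60 and 10.6 CPM at 7 dpf and 22.8, 24.3 and 24.2 CPM at 10 dpf (log2 fold change of 1.17 ± 0.11, adjusted p = 7.85e-06). The repressor and the period gene fell and the cryptochrome rose, all without overlap. Immediate-early genes, which answer nerve activity and handling within minutes, rose in 7 of 41 and fell in 13. FOSB, a subunit of the AP-1 factor, fell, at 42.6, 75.4 and 69.5 CPM at 7 dpf and 23.2, 18.1 and 18.8 CPM at 10 dpf (log2 fold change of -1.64 ± 0.20, adjusted p = 1.17e-04). Without 1 of the libraries, 2 to 3 genes of the immediate-early genes list rose (without Control_7dpf replicate 1 or Control_10dpf replicate 2).

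The largest rises by log2 fold change, among genes with a symbol, no overlap between the ages and at least 5 CPM at one age, came from low levels at 7 dpf. lgals9l4, of the galectin family of sugar-binding proteins, read 1.19, 0.711 and 0.0821 CPM at 7 dpf and 49.9, 29.9 and 3.27 CPM at 10 dpf (log2 fold change of 5.25 ± 0.98, adjusted p = 0.00401). Nitric oxide synthase NOS2 (ENSDARG00000026925), the inducible form that macrophages use against microbes, read 0.396, 0.356 and 0.356 CPM at 7 dpf and 12.7, 9.74 and 11.5 CPM at 10 dpf (log2 fold change of 4.91 ± 0.44, adjusted p = 1.93e-05). rnasel4, of the ribonuclease A family, read 1.58, 0.647 and 0.466 CPM at 7 dpf and 13.6, 30.4 and 5.63 CPM at 10 dpf (log2 fold change of 4.08 ± 0.65, adjusted p = 0.00166). In the galectin and the ribonuclease replicate 3 was far below the other 10 dpf libraries. P2RX4 (ENSDARG00000042452), whose symbol is that of an ATP-gated channel, read 0.601, 0.291 and 0.383 CPM at 7 dpf and 8.05, 8.75 and 2.75 CPM at 10 dpf (log2 fold change of 3.85 ± 0.45, adjusted p = 8.81e-05). Smooth muscle myosin MYH11 (ENSDARG00000100972) read 7.85, 5.24 and 4.68 CPM at 7 dpf and 122, 109.8 and 21.9 CPM at 10 dpf (log2 fold change of 3.82 ± 0.62, adjusted p = 0.00202), again with the lowest 10 dpf value in replicate 3. jac1, of a lectin-like family, read 4.12, 2.42 and 0.876 CPM at 7 dpf and 23.6, 23.4 and 15.6 CPM at 10 dpf (log2 fold change of 3.02 ± 0.41, adjusted p = 5.13e-04).

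The largest falls were of type X collagen and the red opsin opn1lw2, given above. Next came the skin keratin krt1-19e, at 832, 859 and 1322 CPM at 7 dpf and 87.2, 72.6 and 82.7 CPM at 10 dpf (log2 fold change of -3.64 ± 0.25, adjusted p = 3.96e-06). TIMP2 (ENSDARG00000075261), an inhibitor of metalloproteinases, had a log2 fold change of -3.47 ± 1.13, adjusted p = 0.0478, but 1 library carried most of it, at 294, 14.4 and 11.3 CPM at 7 dpf and 11.08, 9.44 and 8.44 CPM at 10 dpf; without that library its log2 fold change was -0.40. The keratin cyt1l read 278, 282 and 511 CPM at 7 dpf and 36.6, 34.2 and 33.1 CPM at 10 dpf (log2 fold change of -3.36 ± 0.36, adjusted p = 1.68e-04). Enamelin (enam), a protein of tooth enamel in mammals, read 7.25, 9.77 and 10.02 CPM at 7 dpf and 0.783, 1.45 and 0.605 CPM at 10 dpf (log2 fold change of -3.21 ± 0.35, adjusted p = 6.65e-05). In both keratins replicate 3 was the highest 7 dpf library. OTOS, named for otospiralin of the inner ear, read 17.5, 22.1 and 19.8 CPM at 7 dpf and 2.996, 2.85 and 2.09 CPM at 10 dpf (log2 fold change of -2.88 ± 0.19, adjusted p = 5.73e-07). The skeletal actin ACTA1 (ENSDARG00000055618) read 348, 554 and 268 CPM at 7 dpf and 62.3, 61.3 and 54.3 CPM at 10 dpf (log2 fold change of -2.72 ± 0.23, adjusted p = 1.32e-05). The smallest p of all tested genes belonged to HHATL (ENSDARG00000039051), whose mammalian counterpart is made in skeletal and heart muscle, at 185, 219 and 180.3 CPM at 7 dpf and 30.8, 32.1 and 29.9 CPM at 10 dpf (log2 fold change of -2.65 ± 0.09, adjusted p = 7.27e-09). Once 1 library was left out, no call was made for TIMP2 (without Control_7dpf replicate 1 or Control_10dpf replicates 1, 2 or 3, adjusted p = 0.0528 to 0.126).

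**Figure D4:**
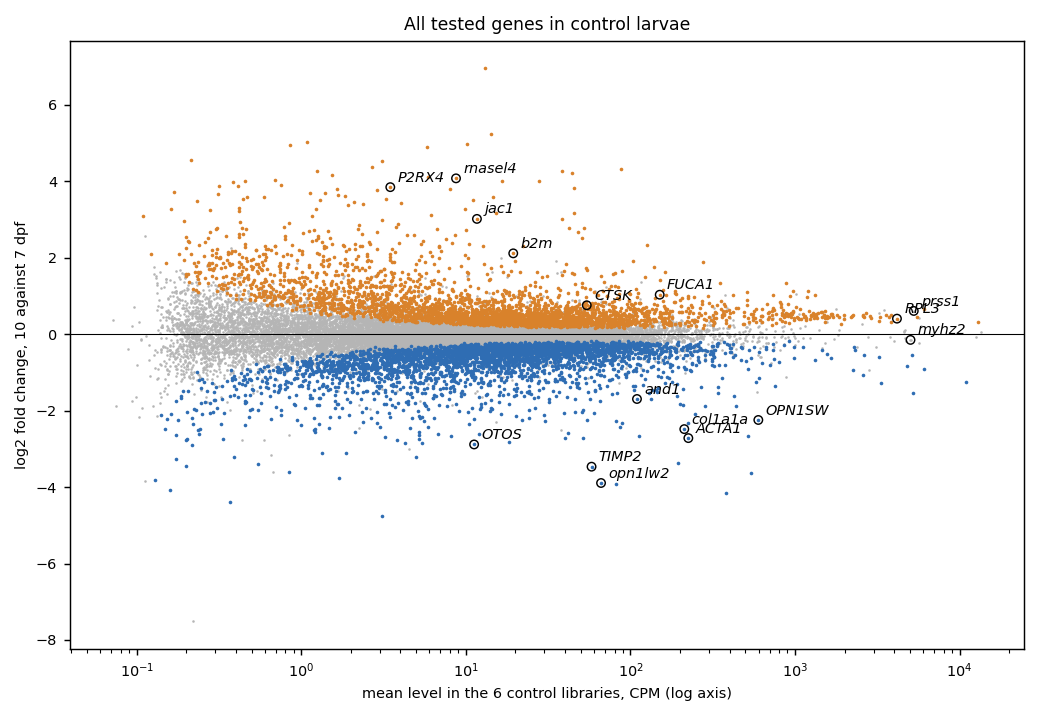
Log2 fold change from 7 to 10 dpf in control larvae (vertical) against mean level of the 6 control libraries in CPM on a log axis (horizontal), 1 point per tested gene; grey points did not pass an adjusted p of 0.05, orange points rose and blue points fell. Labelled genes are named in the text; opn1lw2 lies at -3.89 and rnasel4 at 4.08.

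The same interval could be followed in the exposed larvae, which share no library with the controls. Over all tested genes, 23.2% were called for age in exposed larvae, in either direction. The share of all tested genes with the same sign in both was not counted. Of genes that rose in controls, 3058 of 3300 (92.7%) also had a positive log2 fold change with age in exposed larvae. Of these rises 1622 passed the test there in that direction and 8 in the other. Of genes that fell, 3250 of 3470 (93.7%) were also negative, 2000 passed in that direction and 9 in the other. The median change of these genes in exposed larvae was 0.37 for the rises and -0.41 for the falls; the genes were selected on the control values, so that these medians are not set against those of controls. Tested directly, the age change differed between control and exposed larvae for 62 genes (0.269% of those tested), 38 more positive and 24 more negative in controls. That number was 12 without Control_7dpf replicate 2, 39 without Control_7dpf replicate 3, 17 without Control_10dpf replicate 1 and 24 without Control_10dpf replicate 2. It was 280 with DESeq2, 135 with voom and 2 when tested against a fold of 1.5.

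3 lists held at least 5 of these genes each. In cones 5 of 44 genes differed. Arrestin ARR3 (ENSDARG00000098475), which shuts off cone opsins, read 179.7, 192 and 205 CPM at 7 dpf and 82.4, 52.6 and 62.8 CPM at 10 dpf in controls and 231, 262 and 229.9 CPM at 7 dpf and 205, 189 and 203 CPM at 10 dpf in exposed larvae, whose log2 age change of -0.28 did not pass the test (adjusted p = 0.139; log2 difference -1.27 ± 0.18, adjusted p = 0.0176). Every exposed library, of either age, lay above every control library of 10 dpf. The opsin kinase GRK7 read 256, 259 and 250.1 CPM at 7 dpf and 201, 148 and 173 CPM at 10 dpf in exposed larvae (log2 difference -0.96 ± 0.16, adjusted p = 0.0326). In mitosis 6 of 85 genes differed, each with the larger fall in exposed larvae: kif11, a motor of the spindle, read 13.1, 11.8 and 8.82 CPM at 7 dpf and 7.72, 5.43 and 5.33 CPM at 10 dpf in controls and 12.9, 11.3 and 15.5 CPM at 7 dpf and 2.06, 2.32 and 2.297 CPM at 10 dpf in exposed larvae (log2 difference 1.69 ± 0.26, adjusted p = 0.0224). Lysosomal enzymes were the remaining set, with 6 of the 99 lysosome and autophagy genes. FUCA1 read 87.8, 95.5 and 77.3 CPM at 7 dpf and 80.6, 81.2 and 74.2 CPM at 10 dpf in exposed larvae (log2 difference 1.18 ± 0.13, adjusted p = 0.00297), and TPP1 read 49.6, 51.2 and 45.9 CPM at 7 dpf and 43.3, 48.7 and 47.0 CPM at 10 dpf (log2 difference 0.74 ± 0.11, adjusted p = 0.0188). For both enzymes no exposed library of 10 dpf exceeded the highest control library of 7 dpf. Beyond these lists, ponzr4, an onzin-related protein, read 2.43, 3.65 and 3.92 CPM at 7 dpf and 0.372, 0.372 and 0.393 CPM at 10 dpf in controls and 5.17, 6.61 and 4.65 CPM at 7 dpf and 4.06, 4.37 and 4.198 CPM at 10 dpf in exposed larvae (log2 difference -2.72 ± 0.29, adjusted p = 0.00297). rtn4rl2a, related to the Nogo receptor of neurons, read 43.5, 41.3 and 48.2 CPM at 7 dpf and 19.1, 15.7 and 20.8 CPM at 10 dpf in controls and 41.9, 36.9 and 36.4 CPM at 7 dpf and 42.1, 45.9 and 38.2 CPM at 10 dpf in exposed larvae (log2 difference -1.39 ± 0.15, adjusted p = 0.00297). Both fell in controls with no call for age in exposed larvae. The clone-named gene si:ch73-335l21.4 read 66.0, 74.2 and 58.8 CPM at 7 dpf and 31.8, 31.6 and 29.3 CPM at 10 dpf in controls and 26.6, 34.1 and 26.6 CPM at 7 dpf and 36.7, 40.7 and 46.3 CPM at 10 dpf in exposed larvae (log2 difference -1.60 ± 0.17, adjusted p = 0.00297): it differed already at 7 dpf, where every exposed library was under every control library. KLHL24 (ENSDARG00000008275), an adaptor of a ubiquitin ligase, read 179, 159.5 and 176 CPM at 7 dpf and 259.9, 288 and 279.7 CPM at 10 dpf in controls and 187, 194 and 188 CPM at 7 dpf and 164, 175 and 154 CPM at 10 dpf in exposed larvae (log2 difference 0.89 ± 0.11, adjusted p = 0.00502), a rise in controls with no call in exposed larvae. With 1 control library left out, the difference lost its call for ARR3 and kif11 (without Control_7dpf replicate 2, adjusted p = 0.0542 and 0.0591), TPP1 (highest adjusted p = 0.0591, without Control_7dpf replicate 2 or Control_10dpf replicate 1) and GRK7 (highest adjusted p = 0.0963, without Control_7dpf replicate 2 or Control_10dpf replicates 1 or 2). The differences of FUCA1, ponzr4, rtn4rl2a, si:ch73-335l21.4 and KLHL24 passed without any 1 of the 6.

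**Figure D5:**
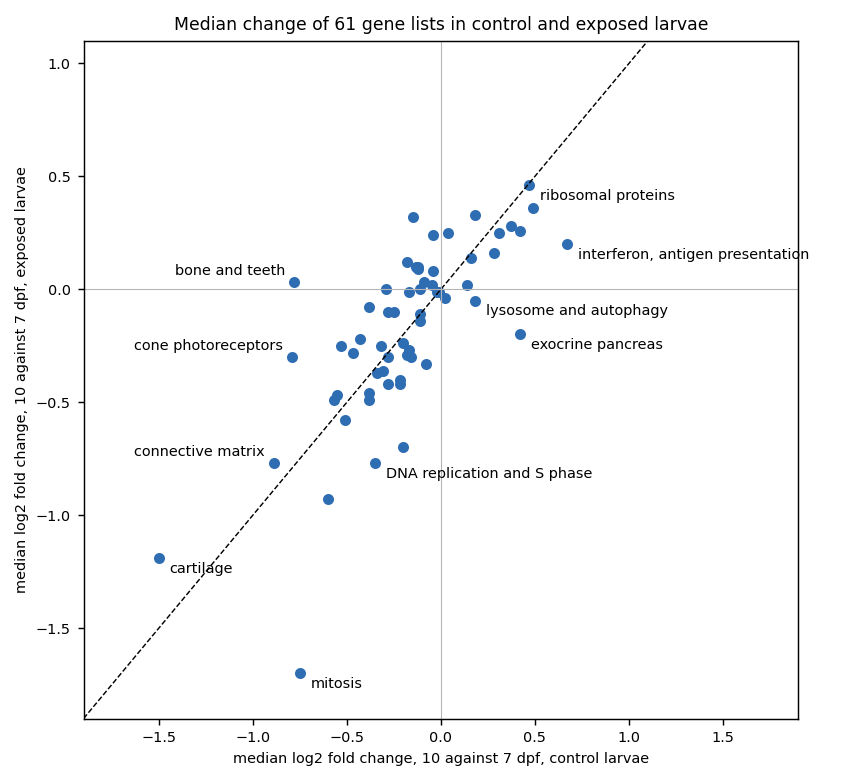
Median log2 fold change from 7 to 10 dpf of the tested genes of each of 61 gene lists in exposed larvae (vertical) against that in control larvae (horizontal); the dashed line marks equal change. Cone photoreceptors lie above the line, at -0.79 in controls and -0.30 in exposed larvae, as do bone and teeth, of whose 30 genes 0 passed the test of the difference, and mitosis lies below it, at -0.75 and -1.70.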

How the data were processed

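Whole-larva mRNA was sequenced from 12 libraries, of which 6 are controls (TruSeq stranded mRNA, paired end, per the labels' protocols). The deposited files hold raw read counts per gene made by the authors with STAR on genome build GRCz11, per the submitters' processing notes; version and annotation release were not found there. The count column of the reverse strand was used. The summary lines of each file were left out. They count reads that were unmapped, mapped to several places, lay in no gene or were ambiguous between genes, together 31.9 to 33.8% of control reads. Symbols came from a table of gene names, which paired 28988 of 32057 gene IDs.

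Genes were kept by edgeR's filter (minimum count 10, total 15), leaving 23075, and scaled by TMM. The main test was edgeR's quasi-likelihood test on all 12 libraries with 4 group means and Benjamini-Hochberg adjustment over all tested genes; errors after ± are standard errors. CPM use TMM-scaled library sizes. The tools were python 3.11.15 with pandas 2.3.3 and matplotlib 3.10.9 and, in R 4.3.3, DESeq2 1.42.0, limma 3.58.1 and edgeR 4.0.16; the fit was tested on simulated counts. The 61 gene lists held 3019 symbols, 157 without a match, and 2804 distinct tested genes. Members and lists were chosen with earlier results of these data known. Named genes are, per list, the first 2 members and up to 4 called ones per direction with the smallest p, the 12 largest rises and falls, the 10 largest by CPM, the 5 smallest p, members of 8 gene families and the 5 smallest p for the difference. Outside this rule, opn1sw2, GRK7, RHCG, PCNA, CCND1, CCT7, igfbp1b, DDIT4, b2m, mhc1uba, hbae3, ARR3 and kif11 were added with their values in view. Alternatives were scaling, filter, strand, samples in the fit, replicate block, tool, a fold of 1.5 and leaving out each control library. Counts are not lengths: levels are compared between ages, not between genes. Several genes can share a symbol (1541 symbols). Reads that map to several places were among those left out, so that levels of near-identical copies are uncertain.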

Additional observations from a re-analysis of the deposited data

Results flagged for a closer look

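The age change differed between control and exposed larvae, by the interaction term of the edgeR quasi-likelihood fit with Benjamini-Hochberg adjustment, for 62 genes, 18 of which the text names. Values are the log2 age change of control minus that of exposed larvae. In cones they were -1.27 for ARR3 (ENSDARG00000098475; -1.54 in control and -0.28 in exposed larvae, adjusted p = 0.0176) and -0.96 for GRK7 (-1.51 and -0.55). In dividing cells they were 1.69 for kif11 (-0.87 and -2.56) and 1.19 for TPX2 (-1.07 and -2.27). Lysosomal FUCA1 gave 1.18 (1.03 and -0.14) and TPP1 gave 0.74 (0.66 and -0.08). Of transporters and gut proteins, atp1a1a.3 gave 0.66 (0.77 and 0.11), slc9a3.2 gave 0.97 (0.85 and -0.11) and FABP6 gave -1.21 (-1.14 and 0.08). Of regulators, nr1d4a gave 0.81 (-0.98 and -1.79), FOSB gave -1.65 (-1.64 and 0.01), CYP26B1 gave -0.84 (-0.75 and 0.10) and KLHL24 gave 0.89 (0.68 and -0.20). The others were ponzr4 at -2.72 (-3.11 and -0.39), rtn4rl2a at -1.39 (-1.26 and 0.13), si:ch73-335l21.4 at -1.60 (-1.10 and 0.50), sult1st7 at 2.81 (3.62 and 0.81) and P2RX4 at 5.19 (3.85 and -1.34). With 1 control library left out, the difference stayed called for 6 of the 18, namely CYP26B1, FUCA1, KLHL24, ponzr4, rtn4rl2a and si:ch73-335l21.4, and lost its call in at least 1 of the 6 fits for the other 12; for atp1a1a.3 it was lost in all 6. In the control larvae the libraries of the ages did not overlap for any of these genes. What HTO, the glove box incubator or the hour of sampling contributes cannot be told apart.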

How the results depend on the processing

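The counts of 3300 genes that rose and 3470 that fell stayed within 1.5 times under other scalings (RLE, upper quartile), other filters, counts without regard to strand, control libraries alone, DESeq2 and voom. Against a fold of 1.5 in place of no change, 423 rose, 570 fell and 2 differed in age change. The 62 genes whose age change differed became 280 with DESeq2, 135 with voom and 22 with the replicate block. With 1 control library left out, 2402 to 3159 genes rose, 2569 to 3109 fell and 12 to 63 differed in age change. Of the 169 named genes, all kept direction and call under both scalings. With control libraries alone 6 lost and 5 gained a call, among the latter the pancreas, liver and transferrin genes given in the text. FBL, which did not pass the test, ranged from -0.13 to 0.02 with 1 control library left out and changed sign at 0.02. The largest scaling shift of the median of all genes was from -0.01 to 0.01. Medians of 8 lists near 0, such as lens, DNA repair and inflammation, changed sign under at least 1 setting. Replicate numbers of the labels did not meet the rule for pairing: deviations of control libraries with the same number correlated at 0.224, 0.043 and 0.183. With the replicate block 3064 genes rose and 3200 fell. Each library correlated best with its own number, which is a hint from the data only. With 3 libraries per age and 31072567 to 67338921 reads on genes, changes of low genes are the least certain.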

Other observations

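Beyond the gene lists, tested genes were grouped by shared symbol stem, and the 8 stems of at least 5 genes with the largest share moving 1 way were cct, olfml, emilin, rpl, col, psma, psmc and rrp. The olfml genes encode secreted olfactomedin-domain proteins, and all 6 fell (median log2 fold change -0.68). OLFML2B read 7.18, 8.18 and 7.20 CPM at 7 dpf and 4.07, 4.60 and 4.45 CPM at 10 dpf (log2 fold change of -0.78 ± 0.12, adjusted p = 4.11e-04). The emilin genes encode glycoproteins that bind elastic fibres, and all 5 fell (median -0.64). emilin2b read 17.6, 20.1 and 21.1 CPM at 7 dpf and 11.4, 12.02 and 11.7 CPM at 10 dpf (log2 fold change of -0.74 ± 0.10, adjusted p = 1.31e-04). Among rises, the stem rpl of large-subunit ribosomal proteins had 39 of 41 genes up (median 0.47). The rrp genes, which process ribosomal RNA, rose in 6 of 7 (median 0.38), and RRP12 read 249, 233 and 229 CPM at 7 dpf and 404, 367 and 408 CPM at 10 dpf (log2 fold change of 0.73 ± 0.12, adjusted p = 5.56e-04). In the proteasome, the ring genes of the psma stem rose in 9 of 10 and the ATPase genes of the psmc stem in 7 of 8. The stems were ranked by this share, so that the shares describe them and are no test.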
